A study of Mus musculus with 12 samples.

Results

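The genes described here are the 7 CDK inhibitor genes and the 3 D cyclin genes of the mouse, 10 of the 21556 genes counted. They were chosen by name as the Cip/Kip inhibitors Cdkn1a (p21), Cdkn1b (p27) and Cdkn1c (p57), the Ink4 inhibitors Cdkn2a (p16 and p19Arf), Cdkn2b (p15), Cdkn2c (p18) and Cdkn2d (p19), and the D cyclins Ccnd1, Ccnd2 and Ccnd3. RNA was sequenced from primary fibroblasts of mouse abdominal skin in 12 libraries, in 4 groups of 3. WT cells came from C57BL/6 mice, and Nox4 KO cells came from B6.129-Nox4tm1Kkr/J mice, which carry a germline knockout allele of NADPH oxidase 4 in all cells. All cells were starved for 24 h before the experiment, control cells received no cytokine, and stimulated cells received TGF-β2 at 10 ng/ml for 24 h. WT and KO mice descended from littermates of heterozygous crosses and were then bred as separate litters, so genotype and litter cannot be told apart. The age of the mice that gave the fibroblasts is not given in the sources used here, and it is not stated which cultures came from which animal. All p-values therefore measure the spread between these libraries.

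D cyclins bind CDK4 and CDK6 and start the phosphorylation of the retinoblastoma protein, which lets a quiescent cell enter the cell cycle. Ink4 proteins bind CDK4 and CDK6 themselves and keep D cyclins off, whereas Cip/Kip proteins act on complexes of CDK2 with cyclins E and A and also help to assemble D cyclin complexes. TGF-β is known in epithelial cells to halt the cycle in G1 by raising p15 and p21 and lowering Myc, while fibroblasts can respond to it without such an arrest.

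Promoter sequences of RefSeq (GRCm38.p6) were found for 7 of the 10 genes, with 11 transcription starts among them. Ccnd1, Ccnd2 and Cdkn1c had no entry. The starts of the Ink4a/Arf/Ink4b locus are shown because counts per gene merge both Cdkn2a products, which begin 12.4 kb apart, and because the levels of Cdkn2a and the neighbouring Cdkn2b varied together between libraries. The start of Cdkn2d is shown because it fell with TGF-β2 in Nox4 KO cells. Ccnd3, which fell there as well, and Cdkn1b, which fell in WT, also have entries, and these are not shown. This choice was made after the values were seen. Each line gives the 250 bases before the start, 5′ to 3′ on the minus strand, and capitals mark CAGAC (a SMAD element) or GGGCGG (an SP1 GC box) on either strand.
Cdkn2a upstream start (p19Arf), chr4:89294620-89294869: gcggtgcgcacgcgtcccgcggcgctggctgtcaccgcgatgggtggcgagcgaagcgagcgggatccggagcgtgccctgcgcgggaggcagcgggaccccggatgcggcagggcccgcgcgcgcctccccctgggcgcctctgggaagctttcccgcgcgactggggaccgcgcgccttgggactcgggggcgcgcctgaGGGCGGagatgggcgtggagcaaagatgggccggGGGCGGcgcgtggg
Cdkn2a downstream start (p16), chr4:89282193-89282442: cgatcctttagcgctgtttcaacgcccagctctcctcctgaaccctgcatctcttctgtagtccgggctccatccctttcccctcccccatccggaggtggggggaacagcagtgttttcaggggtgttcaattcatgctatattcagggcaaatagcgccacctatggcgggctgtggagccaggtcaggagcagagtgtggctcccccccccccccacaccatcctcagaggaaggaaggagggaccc
Cdkn2b, chr4:89311033-89311282: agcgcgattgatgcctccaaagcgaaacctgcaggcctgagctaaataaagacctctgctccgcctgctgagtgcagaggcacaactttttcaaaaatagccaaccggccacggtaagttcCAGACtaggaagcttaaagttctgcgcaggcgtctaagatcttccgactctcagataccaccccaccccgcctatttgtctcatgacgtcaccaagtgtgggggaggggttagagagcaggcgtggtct
Cdkn2d, chr9:21291210-21291459: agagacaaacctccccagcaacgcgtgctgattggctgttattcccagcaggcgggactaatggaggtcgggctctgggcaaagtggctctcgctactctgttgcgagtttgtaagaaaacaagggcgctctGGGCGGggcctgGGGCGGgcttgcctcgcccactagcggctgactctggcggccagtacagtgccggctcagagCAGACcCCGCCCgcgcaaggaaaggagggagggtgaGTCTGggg

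The upstream Cdkn2a window held 2 GC boxes and 78.4% G and C, and the downstream one held neither motif and 60.0% G and C. The Cdkn2b window lay 16.4 kb from the nearer Cdkn2a start and held 1 SMAD element. Cdkn2d held 2 SMAD elements and 3 GC boxes, none of which overlapped. Of all 32851 windows of this length, 42.2% held CAGAC and 32.7% held GGGCGG. The forkhead motif TGTTTAC, present in 3.17% of all windows, was found only at the upstream start of Ccnd3, and no window of these genes held the E2F motif TTTCGCGC (0.256% of all windows) or the E box CACGTG (6.02%).

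Total counts lay between 35118344 and 43796260 per library. All 11 fibroblast markers were counted in every group, with summed levels of 25218 to 40122 CPM (counts scaled to library size). Keratinocyte markers summed to 1.76 to 5.36 CPM. Myeloid markers summed to 26.9 to 228 CPM, with none of the 13 at 0 in any group. Pericyte and smooth muscle markers summed to 403 to 683 CPM and skeletal muscle markers to 63.0 to 941 CPM. Of the skeletal muscle list only Acta1 was over 1 RPKM, at 41.0 to 613. Endothelial markers summed to 9.73 to 31.3 CPM, Schwann cell and melanocyte markers to 5.24 to 11.2 and adipocyte markers to 0.186 to 5.01. Nox4 itself was counted in every library, at 1.31 to 2.42 RPKM (counts scaled to library size and exon length) in WT control, 8.56 to 16.3 in WT with TGF-β2, 0.636 to 1.40 in KO control and 4.39 to 6.85 in KO with TGF-β2. KO against WT had a log2 fold change of -0.99 in control, where the ranges overlapped (adjusted p = 0.828), and -1.17 after TGF-β2, where they did not (adjusted p = 0.838). Whole-gene counts do not separate the targeted exons from the rest, so they are a partial check of the genotype. Pmepa1 and Ccn2, known TGF-β target genes taken as a check of the stimulus, rose in both genotypes, with log2 fold changes of 1.47 and 1.57 in WT and 1.44 and 1.59 in KO. Skil rose in KO (1.21) and had 0.74 in WT (adjusted p = 0.0502). Acta2, Col1a1 and Tgfbi, also taken as checks, were called in neither genotype, with 0.13, -0.081 and -0.34 in WT and -0.058, -0.038 and -0.53 in KO, and Tgfbi fell in the fit with paired KO libraries (-0.54, adjusted p = 0.00654).

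Skin fibroblasts held the 10 genes at very different levels. In WT control, Cdkn1a was highest with 253 ± 34.7 RPKM (SD, n = 3), followed by Ccnd2 with 172 ± 3.47. Cdkn2a (71.3 ± 10.0) and Cdkn2b (67.5 ± 4.27) came next and did not differ beyond their spread. The same held for Ccnd1 (43.7 ± 11.2) and Ccnd3 (36.9 ± 2.03). Cdkn2d (7.38 ± 1.14) and Cdkn1b (6.70 ± 0.329) overlapped as well, and Cdkn2c (3.53 ± 0.784) and Cdkn1c (1.75 ± 0.286) were lowest. Cdkn1a made up 96.7% ± 0.227 of the summed RPKM of the Cip/Kip genes, while p27 and p57 held 2.58% and 0.669%. Cdkn2a and Cdkn2b made up 47.5% ± 2.67 and 45.1% ± 0.940 of the Ink4 sum. Ccnd2 held 68.2% ± 3.68 of the D cyclin sum.

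**Figure D1:**
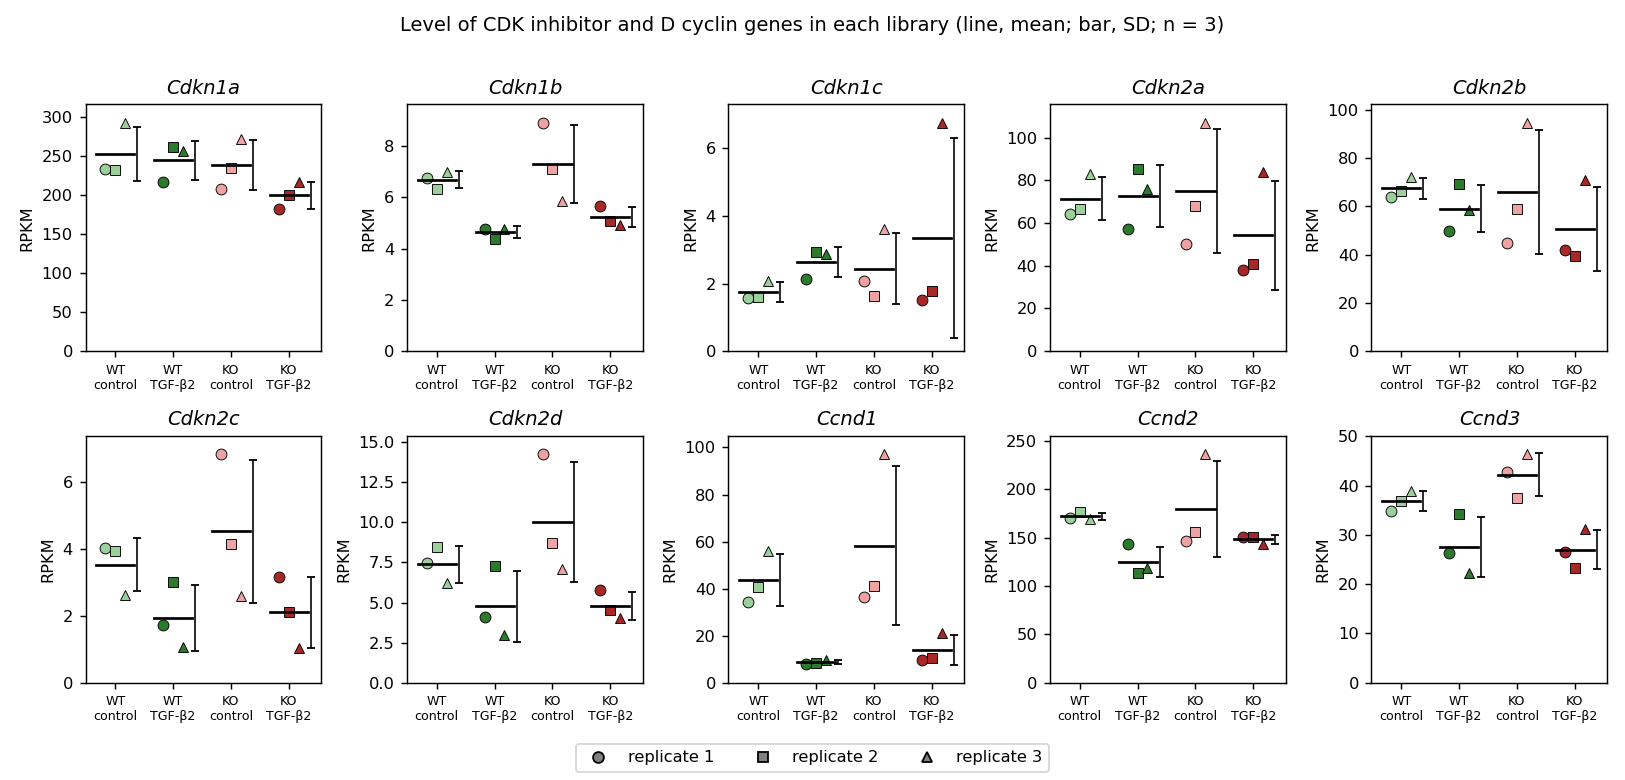
RPKM of each gene (y axis, from 0) in the 12 libraries, by genotype and stimulus (x axis). Symbols are replicates, lines are group means and bars the SD (n = 3). Ccnd1 is lower in all 6 stimulated libraries than in all 6 control libraries, whereas Cdkn1a and Cdkn2a overlap between the conditions, and KO replicate 3 stands above the other KO libraries of its condition for Ccnd1, Cdkn2a, Cdkn2b and Cdkn1c.

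The first question was how TGF-β2 acted on these genes in each genotype. All 10 genes passed the filter on low values in every comparison. In WT cells 2 of them, Ccnd1 and Cdkn1b, fell at an adjusted p under 0.05 and 0 rose, where 12.2% of all genes tested fell, 10.4% rose and 22.6% were called. In Nox4 KO cells Ccnd1, Ccnd3 and Cdkn2d fell and 0 rose, where 14.9% of all genes fell, 15.1% rose and 30.0% were called. The median log2 fold change of the 10 genes was -0.40 in WT and -0.39 in KO, beside -0.0027 and -0.014 over all genes tested. An unadjusted p under 0.05 was reached by 5 of the 10 in WT (37.7% of all genes) and 3 in KO (43.8%). Control and TGF-β2 libraries did not overlap for 5 of the 10 genes in WT (45.2% of all genes), of which 1 was higher (20.3%) and 4 were lower (24.9%). In KO they did not overlap for 4 genes (48.5%), all lower (31.5%), and none higher (17.0%). KO libraries of the same replicate number deviated alike from their group means. They were therefore treated as pairs, a hint from the data that the labels do not give. The pairs were chosen from the same libraries that were then tested. With that pairing in the fit 8 of the 10 genes fell, where 28.8% of all genes fell, 25.2% rose and 54.0% were called. Only Ccnd2 and Cdkn1c were not called with the pairing. Without pairing, Ccnd1 was the one gene called in both genotypes, and the one that also fell at least 2-fold, in WT (5.09% of all genes) and in KO (4.58%). With pairing in KO, Cdkn1b was called in both as well, and Cdkn2c also fell over 2-fold in KO.

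**Figure D2:**
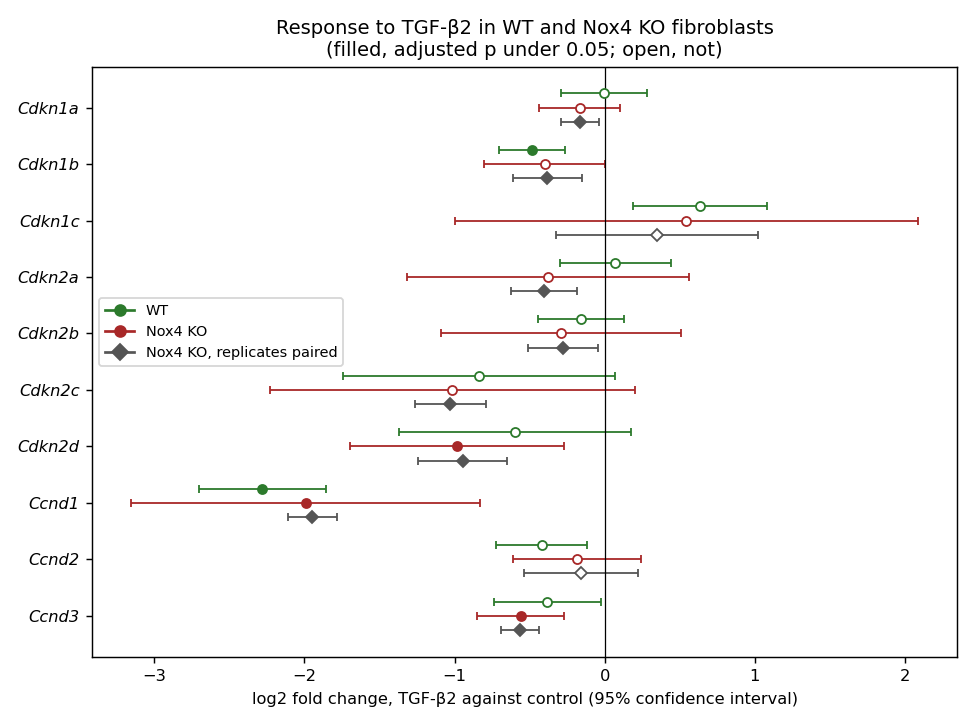
Log2 fold change of TGF-β2 against control (x axis) with its 95% confidence interval for each gene (y axis) in WT, in Nox4 KO, and in Nox4 KO with the replicates paired. Filled symbols have an adjusted p under 0.05. Ccnd1 lies farthest to the left in all 3 fits, and pairing narrows the KO intervals of the Ink4 genes without moving their centres far.

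Ccnd1, the D cyclin that mitogens induce first, showed the largest change of the 10 genes. It was read at 34.4, 40.6 and 56.1 RPKM in WT control and at 8.10, 8.43 and 9.61 with TGF-β2. The groups were widely apart, and the fall was 4.86-fold (95% CI 3.62 to 6.52, adjusted p = 0.000742). In KO cells it was read at 36.6, 41.1 and 97.1 RPKM in control and at 9.47, 10.7 and 21.1 with TGF-β2. Replicate 3 was the highest in both KO conditions, and the groups did not overlap. The KO fall was 3.97-fold (95% CI 1.78 to 8.89, adjusted p = 0.0267). All 3 KO pairs fell, by 1.95, 1.94 and 2.21 on the log2 scale. Without KO control replicate 2 or KO TGF-β2 replicate 1 or 2 the unpaired adjusted p was 0.0502, 0.0805 and 0.104, with the log2 fold change at -2.18, -1.78 and -1.84.

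Ccnd1 lies on chromosome 7 at 144929931 to 144939925 (GRCm38, minus strand) and shares 1100 bases of counted exons with LTO1 on the other strand. The sources used here do not say if reads were counted by strand, and without it reads of that stretch cannot be told apart. LTO1 had a log2 fold change of -0.30 in WT (adjusted p = 0.0577) and -0.35 in KO (adjusted p = 0.0530, and 0.0125 with pairs). Its counts were 844 to 1252 per library, against 1189 to 13206 for Ccnd1. The 3 genes whose levels followed Ccnd1 most closely were Serpinb6b, Adamtsl4 and Pde7b, with Pearson r of log2 CPM of 0.994, 0.991 and 0.988 over the 12 libraries, which share the stimulus and the genotypes.

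Ccnd2, the most abundant D cyclin here, was read at 171, 176 and 169.7 RPKM in WT control and at 143, 113 and 119 with TGF-β2. The WT groups did not overlap, but the log2 fold change of -0.42 (SE 0.13) did not pass the test (adjusted p = 0.0577). The KO levels were 147, 156 and 236 in control and 151, 151 and 143 with TGF-β2, so that replicate 3 alone was lower by more than a few RPKM after stimulation. The KO log2 fold change was -0.19 (95% CI -0.61 to 0.24, adjusted p = 0.447). In WT the adjusted p was 0.0426 without TGF-β2 replicate 1 and 0.0307 with library size as the scaling. Antisense genes that were not analysed here overlap Ccnd2.

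Ccnd3 moved in the same direction with a smaller size than Ccnd1. In WT it was read at 34.9, 36.9 and 38.9 RPKM in control and at 26.3, 34.2 and 22.3 with TGF-β2, with no overlap but wide spread among stimulated libraries (log2 fold change -0.38, SE 0.15, adjusted p = 0.115). KO cells held 42.9, 37.5 and 46.4 in control and 26.5, 23.3 and 31.2 with TGF-β2. Every KO stimulated library was below every KO control library, and Ccnd3 fell by 0.56 on the log2 scale (SE 0.12, adjusted p = 0.0186). Without WT TGF-β2 replicate 2, the WT value was -0.55 with an adjusted p of 0.0125. The KO adjusted p was 0.0606 without control replicate 1, 0.0602 without TGF-β2 replicate 1 and 0.0620 without TGF-β2 replicate 2. Ccnd3 shares 361 exon bases with Bysl on the opposite strand, which rose in both genotypes (log2 fold change 0.55 in WT and 0.40 in KO).

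The sum of the 3 D cyclins was lower after TGF-β2, and Ccnd1 held a smaller part of it. The summed level was 253 ± 12.4 RPKM in WT control and 161 ± 14.2 with TGF-β2, and 280.2 ± 86.4 in KO control and 189 ± 5.75 with TGF-β2. The part held by Ccnd1 was 17.2% ± 3.58 in WT control and 5.45% ± 0.907 with TGF-β2. In KO it was 19.8% ± 5.08 and 7.21% ± 3.10. The part held by Ccnd2 was 68.2% ± 3.68 and 77.4% ± 4.16 in WT and 64.5% ± 2.15 and 78.5% ± 4.56 in KO. Ccnd3 held 14.2% to 17.2% in all 4 groups. These parts are descriptions without a test.

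**Figure D3:**
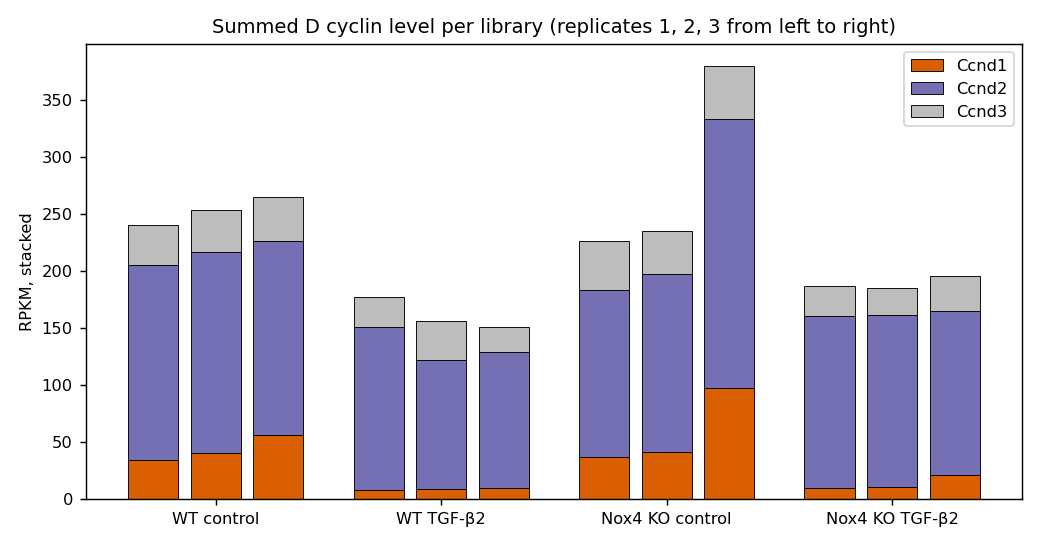
RPKM of Ccnd1, Ccnd2 and Ccnd3 stacked (y axis, from 0) for each of the 12 libraries, grouped by genotype and stimulus (x axis). The stack reaches 240.0 to 265 RPKM in WT control and 151 to 177 with TGF-β2, and KO control replicate 3 has the tallest stack at 379.8. The Ccnd1 segment shrinks the most in proportion to its size. In RPKM the WT mean went from 43.7 to 8.71 for Ccnd1 and from 172 to 125 for Ccnd2.

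Among the Cip/Kip genes, 1 of 3 passed the test in WT (22.6% of all genes) and 0 in KO without pairs (30.0%). Cdkn1a and Cdkn1b passed in KO with pairs, where 54.0% of all genes did. Cdkn1a, the p21 gene and the most abundant of the 10, was read at 234, 232 and 293 RPKM in WT control and at 216, 262 and 257 with TGF-β2, and the ranges overlapped. Its WT fold change was 0.997 (95% CI 0.819 to 1.21, adjusted p = 0.985), so that a rise above 1.21-fold lay outside the interval. KO levels were 208, 234 and 272 in control and 182, 200.2 and 217 with TGF-β2. The unpaired KO log2 fold change was -0.17 (adjusted p = 0.289). All 3 pairs were lower after stimulation, and in the paired fit Cdkn1a fell by 0.16 on the log2 scale (SE 0.050, adjusted p = 0.0383).

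Cdkn1b, which holds CDK2 inactive in quiescent cells, fell in WT. It was read at 6.77, 6.34 and 6.98 RPKM in WT control and at 4.78, 4.39 and 4.77 with TGF-β2, with tight groups far apart. The fall was 1.40-fold (log2 fold change -0.49, SE 0.092, adjusted p = 0.0120). The WT adjusted p was 0.0619, 0.0501 and 0.0590 without control replicate 1, 2 or 3, with log2 fold changes of -0.47, -0.50 and -0.45. Its KO levels were 8.91, 7.12 and 5.86 in control and 5.66, 5.08 and 4.93 with TGF-β2. The KO groups did not overlap, yet the log2 fold change of -0.40 had an adjusted p of 0.118, which was 0.0190 in the paired fit and 0.0347 without KO control replicate 3.

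Cdkn1c, an imprinted gene, was the one gene with higher values after TGF-β2 in both genotypes, and neither passed the unpaired test of edgeR. It was 1.57, 1.60 and 2.08 RPKM in WT control and 2.13, 2.92 and 2.88 with TGF-β2, without overlap (log2 fold change 0.63, SE 0.19, adjusted p = 0.0529). With replicate numbers as a block in WT, where they were not treated as pairs, the adjusted p was 0.0311. DESeq2 gave 0.0243 in WT. The KO libraries held 2.07, 1.62 and 3.63 in control and 1.51, 1.79 and 6.76 with TGF-β2. Replicate 3 alone carried the high KO values, and without TGF-β2 replicate 3 the KO log2 fold change was -0.47 in place of 0.54. Its counts were 109 to 564 per library. An antisense gene that was not analysed here overlaps Cdkn1c. Of 10 tested neighbours in the same imprinted domain, 1 rose and 2 fell in WT and 1 rose and 4 fell in KO (median log2 fold change -0.21 and -0.40). Tnfrsf23, a decoy receptor, rose (log2 fold change 0.62 in WT and 0.63 in KO), whereas Dhcr7, the last enzyme of cholesterol synthesis (-0.96 and -1.02), and the transporter Slc22a18 (-1.40 and -1.35) fell in both.

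The Ink4 genes formed 2 pairs by level. Cdkn2a and Cdkn2b, on chromosome 4 at 89274471 to 89294653 and 89306299 to 89311039 (GRCm38, minus strand), were high and varied together, with r = 0.956 over the 12 libraries. Each was the other's closest gene of 10889 compared. Cdkn2c and Cdkn2d, on chromosomes 4 and 9, were low and followed one another with r = 0.950.

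Cdkn2b, the p15 gene known as a TGF-β target in epithelia, was not called in either genotype without pairing. It was read at 63.8, 66.5 and 72.1 RPKM in WT control and at 49.6, 69.2 and 58.3 with TGF-β2 (log2 fold change -0.16, 95% CI -0.44 to 0.13, adjusted p = 0.385). Its KO values were 44.8, 58.7 and 94.6 in control and 41.7, 39.5 and 70.8 with TGF-β2. The KO ranges overlapped widely because replicate 3 was high in both conditions (log2 fold change -0.29, adjusted p = 0.527). With pairs it fell by 0.28 on the log2 scale (SE 0.093, adjusted p = 0.0495).

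Cdkn2a was 64.4, 66.6 and 82.8 RPKM in WT control and 57.0, 85.4 and 76.0 with TGF-β2, a log2 fold change of 0.07 (95% CI -0.30 to 0.44). Without WT TGF-β2 replicate 2 it was -0.045. KO libraries were at 50.1, 67.8 and 107 in control and 38.2, 40.9 and 83.8 with TGF-β2. Replicate 3 was again the highest of each group. The unpaired adjusted p was 0.487, and in the paired fit Cdkn2a fell by 0.40 on the log2 scale (SE 0.087, adjusted p = 0.0131).

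Cdkn2c, known for p18, was low everywhere. It was read at 4.03, 3.93 and 2.62 RPKM in WT control and at 1.71, 3.02 and 1.07 with TGF-β2, with 1 stimulated library inside the control range (log2 fold change -0.84, SE 0.38, adjusted p = 0.160). With replicate numbers as a block in WT, the log2 fold change was -0.92 (adjusted p = 0.0231). Its KO levels were 6.82, 4.15 and 2.58 in control and 3.17, 2.11 and 1.05 with TGF-β2. Replicate 1 was the highest and replicate 3 the lowest of both KO groups. All 3 pairs were lower, by 1.11, 0.98 and 1.30 on the log2 scale, and the adjusted p was 0.171 without pairs and 0.000890 with them.

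Cdkn2d showed the same order of replicates in both KO groups and in WT with TGF-β2, but not in WT control. It was 7.47, 8.46 and 6.19 RPKM in WT control and 4.07, 7.26 and 2.97 with TGF-β2 (log2 fold change -0.60, SE 0.32, adjusted p = 0.225). With replicate numbers as a block in WT, the log2 fold change was -0.67 (adjusted p = 0.0400). KO cells had 14.2, 8.74 and 7.10 in control and 5.78, 4.53 and 4.04 with TGF-β2, and the KO groups did not overlap. Cdkn2d fell 1.98-fold in KO (log2 fold change -0.99, SE 0.29, adjusted p = 0.0488, and 0.00224 with pairs). This call rested on every library but KO control replicate 3, since the unpaired adjusted p was 0.0959 and 0.0939 without control replicate 1 or 2 and 0.0739, 0.151 and 0.103 without TGF-β2 replicate 1, 2 or 3. In WT, leaving out TGF-β2 replicate 2 gave Cdkn2c a log2 fold change of -1.29 (adjusted p = 0.0318) and Cdkn2d one of -1.01 (adjusted p = 0.0245).

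**Figure D4:**
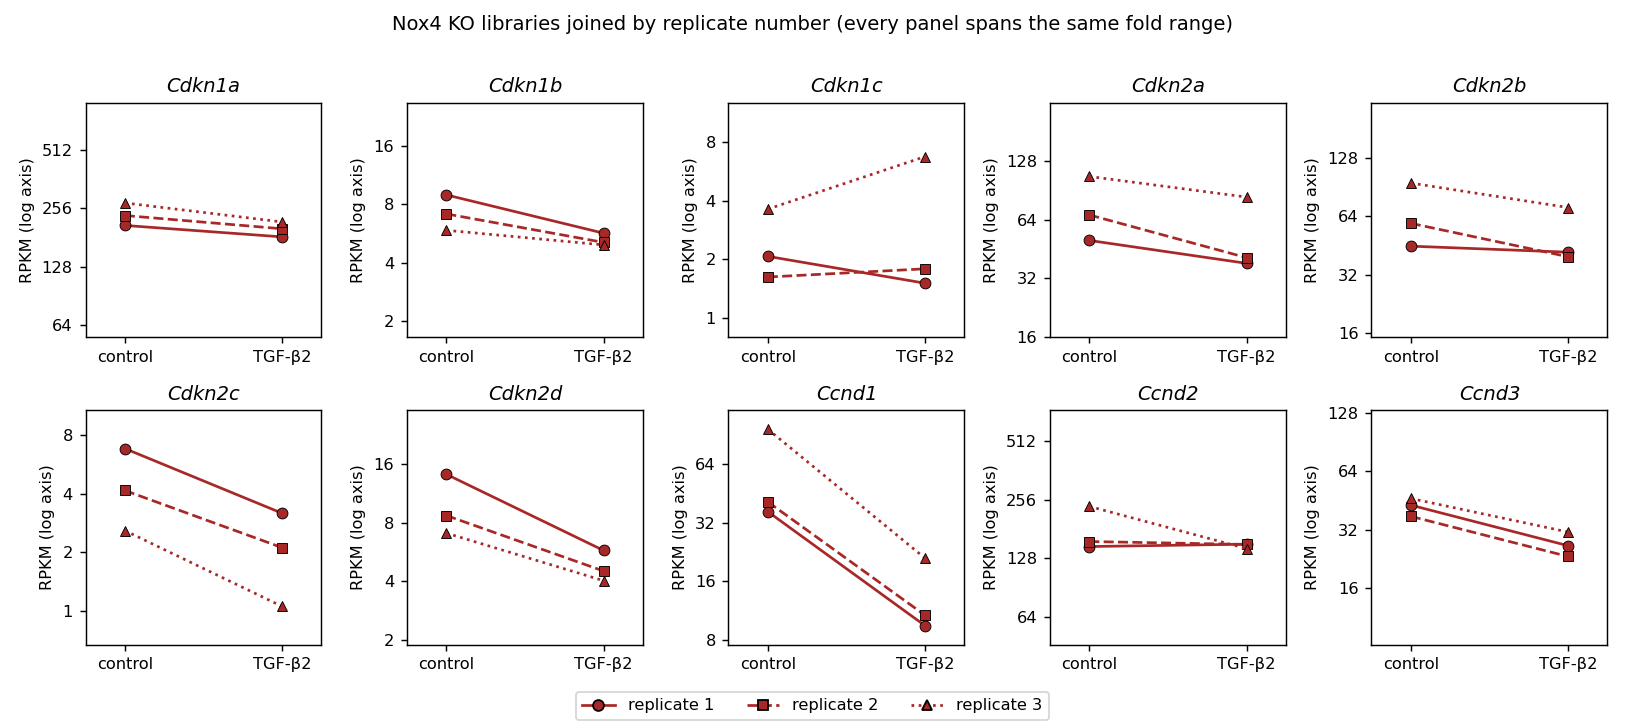
RPKM on a log axis (y) in Nox4 KO control and TGF-β2 libraries (x), joined by replicate number, in panels of equal fold range. The 3 lines fall side by side for Ccnd1, Ccnd3, Cdkn2c and Cdkn2d, and replicate 3 is highest for Cdkn2a and lowest for Cdkn2c in both conditions. For Cdkn1c and Ccnd2 the pairs differ in direction.

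KO replicate 3 had the highest Cdkn1a, Cdkn1c, Cdkn2a, Cdkn2b and Ccnd1 and the lowest Cdkn1b, Cdkn2c and Cdkn2d of the KO libraries, in control and after TGF-β2 alike.

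Proliferation genes differed between the libraries in a like manner. The 22 genes of a G2/M list summed to 1018, 611 and 394 CPM in KO control replicates 1, 2 and 3 and to 625, 359 and 192 after TGF-β2. In WT they summed to 441, 619 and 200.3 in control and to 258, 384 and 87.8 with TGF-β2. In these bulk samples, fewer dividing cells and less of such RNA per cell cannot be told apart. The libraries with the lowest G2/M sum of each group, replicate 3 throughout, also had the lowest Cdkn2c and Cdkn2d. Myeloid markers summed to 176, 69.8 and 38.9 CPM in KO control and 129.6, 47.8 and 26.9 in KO with TGF-β2, in the same order as Cdkn2c. In WT they were 88.0, 51.7 and 228 in control and 66.3, 41.2 and 162 with TGF-β2, highest where Cdkn2c was lowest. The part of either list in the values of these genes was not tested. Of the G2/M genes 0 of 21 tested were called in WT and 0 of 22 in KO. Their median log2 fold changes were -0.74 and -0.78, beside -0.0027 and -0.014 over all genes tested. In the paired KO fit 21 of 22 fell, where 28.8% of all genes fell. Between genotypes, all 22 had higher fitted values in KO control than in WT control (median log2 fold change 0.68) and all 21 tested had so after TGF-β2 (0.60), with 0 called. The medians over all genes tested were 0.0017 in control and 0.0020 after TGF-β2. The study reported similar growth, viability and proliferation of WT and KO fibroblasts in culture.

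**Figure D5:**
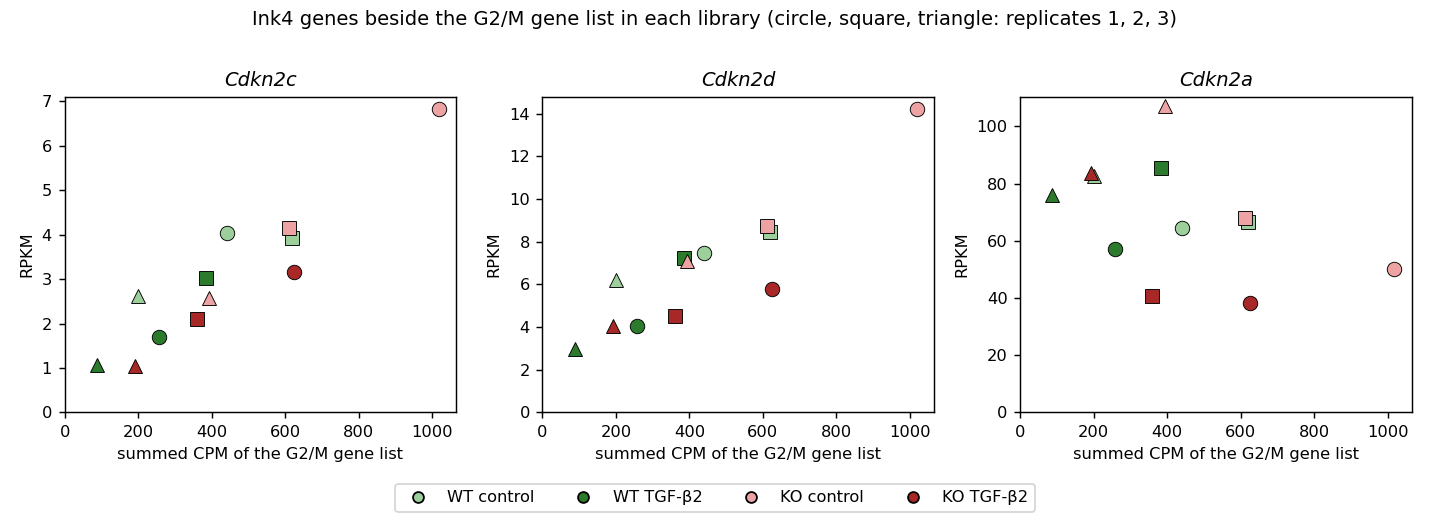
RPKM of Cdkn2c, Cdkn2d and Cdkn2a (y axes) against the summed CPM of the 22 G2/M genes (x axis) in each of the 12 libraries. Colours mark the groups and shapes the replicates. Cdkn2c and Cdkn2d are highest in KO control replicate 1, at 6.82 and 14.2 RPKM, which also has the highest G2/M sum, 1018 CPM, and Cdkn2a is highest in KO control replicate 3.

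The second question was whether the absence of Nox4 changed these genes or their response. None of the 10 differed between KO and WT at an adjusted p under 0.05 in control cells or after TGF-β2, and none differed in response in the interaction test of edgeR. The background was 0% of all genes in each of the 3 comparisons. At an unadjusted p under 0.05 there were 0, 1 and 0 of the 10 genes, where 5.54%, 3.23% and 2.68% of all genes passed. DESeq2 called 0 of the 10 in each, and 28, 16 and 6 of all genes.

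That gene was Cdkn1a after TGF-β2, at 216 to 262 RPKM in WT and 182 to 217 in KO. The log2 fold change was -0.27 (95% CI -0.53 to -0.013), with an adjusted p of 0.838 by the quasi-likelihood test of edgeR. The ranges overlapped by 1 library. Cdkn1b and Ccnd2 did not overlap after TGF-β2, with every KO library above every WT library, where 10.1% of all genes did not overlap and 4.16% were higher in KO. Cdkn1b was at 4.39 to 4.78 RPKM in WT and 4.93 to 5.66 in KO, a log2 fold change of 0.19 (adjusted p = 0.838). Ccnd2 was at 113.2 to 142.995 RPKM in WT and 143.3 to 151 in KO, a log2 fold change of 0.26 (adjusted p = 0.838). In control cells 0 of the 10 genes were free of overlap (13.6% of all genes, 10.9% higher in KO).

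Intervals in control cells show what these libraries could resolve. KO against WT was between -0.032 and 0.34 on the log2 scale for Ccnd3, between -0.42 and 0.17 for Cdkn1a and between -0.29 and 0.47 for Cdkn1b. It was between -0.56 and 1.31 for Ccnd1, between -0.59 and 0.66 for Cdkn2a, between -0.59 and 1.23 for Cdkn2c, between -0.30 and 1.17 for Cdkn1c and between -0.28 and 1.09 for Cdkn2d. A 2-fold difference thus lay inside the intervals of Ccnd1, Cdkn1c, Cdkn2c and Cdkn2d. The response of Ccnd1 differed between genotypes by 0.30 on the log2 scale (95% CI -0.88 to 1.49, adjusted p = 0.910) and that of Ccnd3 by -0.16 (95% CI -0.60 to 0.27, adjusted p = 0.867). Cdkn1c and Ccnd1 lie on the same chromosome as Nox4, 56.1 and 57.5 Mb away.

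The lists of pathway genes stand beside 22.6% of all genes called in WT, 30.0% in KO and 54.0% in KO with pairs. Of 24 regulators of the TGF-β cytostatic programme, 5 rose and 6 fell in WT, and 5 rose and 9 fell in KO, against 5 and 12 with pairs. These were 45.8%, 58.3% and 70.8% of the list. The median log2 fold change was -0.28 and -0.21, beside -0.0027 and -0.014 over all genes. Myc, which the programme lowers in epithelia, rose, from 19.2, 22.6 and 21.8 RPKM in WT control to 38.7, 44.3 and 42.3 with TGF-β2 (log2 fold change 1.02, adjusted p = 0.00113). In KO its log2 fold change was 0.74 (adjusted p = 0.00526). Klf10, an early TGF-β response gene, rose by 0.98 in WT and 1.06 in KO on the log2 scale, and the inhibitory Smad7 by 0.82 and 0.81. Id4 and Id2, which block basic helix-loop-helix factors, had log2 fold changes of -2.81 and -1.84 in WT and -2.96 and -1.87 in KO, and Smad3, a signal carrier of the pathway, had -1.07 and -0.73. All 3 fell in both genotypes.

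Of 19 tested CDK4/6, pocket protein and E2F genes, 1 rose and 2 fell in WT and 2 rose and 2 fell in KO, against 2 and 6 with pairs (median log2 fold change -0.12 and -0.15). E2f4, a repressive E2F, rose by 0.56 in WT and 0.33 in KO on the log2 scale. The pocket protein gene Rbl2 (log2 fold change -0.69 and -0.48) and the E2F partner Tfdp2 (-0.55 and -0.39) fell in both. Among 22 genes of cyclin E, cyclin A, CDK2 and the G1/S step, 0 were called in WT, and Cdc25a, a phosphatase that activates CDK2, and Mnat1, a CDK7 partner, rose in KO (log2 fold change 0.38 and 0.28). With pairs 5 rose and 6 fell. The median log2 fold change was -0.0041 in WT and 0.0031 in KO.

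Of 20 p53 genes, 2 rose and 5 fell in each genotype, and 4 rose and 8 fell in KO with pairs (median log2 fold change -0.091 in WT and -0.00081 in KO). These were 35.0% of the list in each genotype and 60.0% with pairs. Cdkn1a is itself a p53 target. Pmaip1, a pro-apoptotic gene, rose (log2 fold change 1.78 in WT and 1.39 in KO), as did the kinase gene Plk2 (0.90 and 0.71). The sestrins Sesn2 (-0.45 and -0.44) and Sesn1 (-0.77 and -0.59) fell in both. The death receptor gene Fas fell in WT (-1.05) and had -1.04 in KO with an adjusted p of 0.158, and in the paired fit it fell by 1.21 on the log2 scale (adjusted p = 0.00952).

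Of 16 genes for the turnover of p27 and D cyclins, 0 rose and 1 fell in WT and 1 rose and 1 fell in KO, against 2 and 3 with pairs (median log2 fold change -0.041 and -0.036). The WT gene was Rnf123, a ligase subunit that marks p27 in G1 (log2 fold change -0.63, and -0.35 in KO with an adjusted p of 0.0982, or 0.00456 with pairs). Among 22 tested regulators of the Ink4a/Arf/Ink4b locus, 1 rose and 3 fell in WT and 2 rose and 4 fell in KO, against 4 and 7 with pairs (median log2 fold change -0.100 and -0.044). Ets1, an activator of p16, rose (0.55 in WT and 0.84 in KO on the log2 scale). Cbx6, a Polycomb gene, had -1.14 and -1.13 and fell in both, as did the transcription factor gene Twist1 (-0.77 and -0.99). Phc1, another Polycomb gene, fell in WT (-0.38) and had -0.28 in KO with an adjusted p of 0.108, or 0.0142 with pairs. Of 16 tested genes next to the other inhibitors and D cyclins, 2 rose and 1 fell in WT and 3 rose and 1 fell in KO, against 4 and 5 with pairs (median log2 fold change 0.021 and 0.035). Mtap, next to Cdkn2a, rose by 0.39 and 0.42 on the log2 scale, and Slc44a2, near Cdkn2d, fell in WT (-0.38) and had -0.39 in KO with an adjusted p of 0.0625, or 0.0144 with pairs.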

How the data were processed

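Per the labels and the methods of the study, reads were processed with CASAVA 1.8.2, mapped to GRCm38 with STAR 2.4 and counted with featureCounts 1.4.6 over merged exons of protein-coding isoforms, without reads of several locations. The authors deposited raw counts per gene, and whether strand was used is not given in the sources used here. All 12 columns were assigned to a sample by title.

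RPKM used these counts, the library total and merged exon lengths of GENCODE M21 (GRCm38). Genes with a mean of at least 1 RPKM in 1 group were tested with edgeR 4.0.16 (quasi-likelihood test after TMM, R 4.3.3), with Benjamini-Hochberg adjustment over all genes. A call is an adjusted p under 0.05, without a fold limit. Each comparison used its own 6 libraries, and the interaction all 12. Intervals used the t distribution of the fit. A permutation test was planned for genes below the filter, and there were 0 of these. Libraries of a group differed beyond sampling noise (chi-square per gene 14.4 to 147). Deviations from the group means correlated between KO libraries of the same number at r = 0.764, 0.689 and 0.741, so these were treated as pairs, a hint from the data and not from the labels.

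The genes and lists were chosen with earlier results of these data known. By rule, at most 3 higher and 3 lower genes of a list with the smallest adjusted p in WT (in KO where none was called in WT) were named, except 1 that is not reported here. Promoters were to be shown for genes called in both genotypes, which without pairs is Ccnd1, without an entry. With pairs in KO it is also Cdkn1b, whose window is not shown. The procedure was run on counts simulated for the WT comparison, with independent replicates and the same dispersion for every gene. That run does not cover correlated KO libraries or KO against WT. Alternatives were DESeq2 1.42.0, other scalings and filters, other gene lengths, a 2-fold limit, a replicate block, left-out libraries, log2(CPM + 0.1) for the permutation test, CPM shares and, added after seeing the data for single fold changes, all 12 libraries in 1 fit.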

Additional observations from a re-analysis of the deposited data

How the results depend on the processing

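Among the fold changes of single genes under other settings and with 1 library left out, 624 kept their direction and side of the threshold, 18 gained a call, 16 lost one and 42 changed sign. In KO against WT and in the interaction 0 of the 10 genes were called under any setting run. With a 2-fold limit 1 of the 10 genes was called in WT and 1 in KO, Ccnd1 in both, and over all genes 829 in place of 2425 and 735 in place of 3243. DESeq2 called 4 in WT (Cdkn1b, Cdkn1c, Ccnd1 and Ccnd2), where it called 3383 of all 10743 genes in place of 2425. It called 28, 16 and 6 genes in place of 0 in KO against WT in control, after TGF-β2 and in the interaction. Cdkn2d in KO had an adjusted p of 0.0539 with filterByExpr and 0.0525 with all 12 libraries in 1 fit, the latter chosen after seeing the data. Ccnd2 in WT was called with upper-quartile factors (0.0479) and library size only (0.0307), and Cdkn1c with filterByExpr (0.0459), where Cdkn1a had a log2 fold change of 0.027. Over all genes, library size alone split the KO calls into 1032 higher and 2122 lower and upper-quartile factors into 1216 and 1969, in place of 1637 and 1606, and WT calls into 886 and 1374 with library size, in place of 1117 and 1308. On the CPM scale Ccnd1 held 11.4%, 3.46%, 13.4% and 4.56% of the D cyclins in WT control, WT with TGF-β2, KO control and KO with TGF-β2, Ccnd2 held 81.4%, 88.4%, 78.7% and 88.8%, and Ccnd3 7.17%, 8.11%, 7.88% and 6.64%. Where no cause is named above, the cause was not tested.

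With the replicate block 8 of the 10 genes were called in KO and 5 in WT (Cdkn1b, Cdkn2c, Cdkn2d and Ccnd1 lower and Cdkn1c higher). Over all genes it called 5842 of 10809 in KO, in place of 3243. In WT it called 3080 of 10743 genes, 1319 higher and 1761 lower, in place of 2425. In WT same-numbered libraries correlated at r of 0.0432, 0.412 and 0.516, and not every library correlated best with its own number, so they were not treated as pairs, and the labels do not settle this. In KO against WT the block gave log2 fold changes of -0.026 for Cdkn2a and -0.012 for Ccnd2 in control and 0.00069 for Ccnd3 after TGF-β2. It changed no call in KO against WT or in the interaction.

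Leaving out 1 library gave 1 to 5 called of the 10 in WT and 0 to 4 in KO, where 0 remained without KO TGF-β2 replicate 1 or replicate 2. Over all genes it gave 1232 to 3399 calls in WT and 1134 to 3511 in KO. Log2 fold changes that changed sign ranged in WT from -0.054 to 0.11 for Cdkn1a and from -0.045 to 0.19 for Cdkn2a. In KO they ranged from -0.47 to 0.92 for Cdkn1c, from -0.60 to 0.037 for Cdkn2b and from -0.31 to 0.044 for Ccnd2. In KO against WT control they ranged from -0.086 to 0.23 for Cdkn1b, from -0.30 to 0.25 for Cdkn2a, from -0.41 to 0.14 for Cdkn2b, from -0.11 to 0.60 for Cdkn2c, from -0.19 to 0.61 for Ccnd1 and from -0.21 to 0.14 for Ccnd2. After TGF-β2 the ranges were -0.65 to 0.71 for Cdkn1c, -0.26 to 0.59 for Cdkn2c, -0.20 to 0.43 for Cdkn2d and -0.13 to 0.14 for Ccnd3. In the interaction they were -0.064 to 0.27 for Cdkn1b, -1.09 to 0.29 for Cdkn1c, -0.44 to 0.19 for Cdkn2b, -0.57 to 0.27 for Cdkn2c, -0.61 to 0.025 for Cdkn2d and -0.14 to 0.85 for Ccnd1. The other pseudocount was not run, since no gene lay below the filter. Depth limits Cdkn1c and Cdkn2c most, with 109 and 107 counts in their lowest libraries.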
